A study of Mus musculus with 6 samples.

Results

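The airway ion channels and aquaporins are the transport proteins that set the salt and water content of the liquid on the tracheal epithelium. They were chosen by name, as 10 genes: the sodium channel subunits *Scnn1a*, *Scnn1b* and *Scnn1g*, the chloride secretion genes *Cftr*, *Slc12a2*, *Slc26a9* and *Ano1*, and the water channels *Aqp3*, *Aqp4* and *Aqp5*. Every probe set (a group of short oligonucleotides on the array that read 1 transcript) annotated to exactly 1 of these symbols was taken. This gave 18 probe sets for 9 of the 10 genes, out of 18193 genes measured, and *Slc26a9* was not analysed here. The tracheal epithelium of adult male C57Bl/6 mice was compared between uninjured controls and mice killed 48 h after a 4 h exposure to 500 ppm SO2 (48 hpi), a gas that kills the luminal cells and leaves basal cells to rebuild the epithelium. Each group had 3 arrays, and each array held RNA pooled from the tracheas of 4 mice. The epithelium of both groups was peeled off after dispase, dissociated in trypsin and depleted of CD45+ leukocytes with magnetic beads.

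Airway epithelium moves salt in both directions, and water follows. Sodium enters through the apical epithelial sodium channel, built from the alpha, beta and gamma subunits that *Scnn1a*, *Scnn1b* and *Scnn1g* encode, and the basolateral sodium pump removes it. For secretion, the cotransporter Slc12a2 loads chloride through the basolateral membrane, and apical channels release it: Cftr, opened by cyclic AMP signaling, and Ano1, opened by calcium. Aquaporins pass water, Aqp3 and Aqp4 in basolateral membranes and Aqp5 in apical ones. In the mouse trachea Ano1 carries much of the chloride secretion, and ionocytes are rare cells rich in *Cftr*.

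Among the genes of sodium absorption and chloride secretion, *Ano1*, *Scnn1a* and *Scnn1b* fell at 48 hpi, *Ano1* by 1.56 on the log2 scale and *Scnn1a* by 1.22. Among the water channels, *Aqp5* and *Aqp3* did not pass the test on their brightest probe sets, and *Aqp4* fell by 0.62 with an adjusted p just under the threshold. *Cftr* lay within the background of the arrays in both groups. All levels are log2 signals after robust multi-chip analysis (RMA), and a change is the 48 hpi mean minus the control mean. A change was called at a limma adjusted p below 0.05 over all 34945 probe sets with 1 symbol.

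Of the 18 probe sets, 5 were called lower (15.2% of all probe sets were) and 1 was called higher (17.7% of all, with 32.9% called in either direction). Where a gene is read from its brightest probe set, the one with the highest mean over the 6 arrays, 4 of 9 genes were called lower, against 17% of all genes, and 0 were called higher, against 18.9% (35.9% in either direction). At an unadjusted p below 0.05, 6 of the 9 genes were lower on the brightest probe set (22.4% of all genes) and 0 were higher (22.3%). The methods' t-test called 2 genes lower (9.64% of all) and 0 higher (14.7%). That test is the default the paper names for its results, and it was read here at an adjusted p below 0.05. For these arrays the paper instead states an analysis of variance over both tissues, so the calls of that test are not the paper's. The groups did not overlap on 8 of the 18 probe sets, 5 with 48 hpi lower (22.9% of all) and 3 with 48 hpi higher (24.1% of all). On the brightest probe set of each gene, 4 genes had 48 hpi lower without overlap (25.1% of all genes) and 1 had it higher (25.4%). By role, the median change was -1.20 for the 3 sodium channel genes, -0.58 for the 3 chloride genes and -0.13 for the 3 water channels, beside -0.02 over all genes.

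The array medians were close, at 4.98 to 4.99 in the controls and 4.88 to 4.91 at 48 hpi, but every injured array lay below every control. The controls correlated with each other across probe sets at r of 0.993 to 0.996. At 48 hpi, replicates 1 and 2 correlated at 0.996, and replicate 3 stood apart from both, at 0.990 and 0.991. Levels were read against a background of 79 olfactory, vomeronasal and trace amine receptor probe sets, whose 95th percentile of group means lay at 4.94 in the controls and 4.81 at 48 hpi. Of the member probe sets, 15 exceeded it in both groups and 3 in neither. RMA brings the overall distributions of the arrays close together, although the medians still differed between the groups. Scaling the arrays to equal hybridization controls instead, which were 0.50 above the mean of the 6 arrays on control replicate 1, moved the median change of all probe sets up by 0.34 and the share of calls that were higher from 53.8% to 86.2%. With a common median that share was 65.8%.

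The epithelial label was borne out by the levels of the 4 epithelial markers, all above background. Among them *Epcam*, the epithelial adhesion molecule, had a mean of 11.04 in the controls and 11.32 at 48 hpi. Of the 4, 2 were called higher and 2 were not called, with a median change of 0.20. *Cdh1* differed by -0.18 and was not called, and the call of *Epcam* was lost in 9 of 20 alternatives. Markers of several cell types shifted with the injury. Of the ciliated cell markers, 10 of 11 were called lower, with a median change of -1.12, and the sum of the list ranged from 9.63 to 10.7 in the controls and from 8.69 to 9.71 at 48 hpi. The marker not called was *Foxj1*, which differed by -0.04 and was above background in both groups. Of the 11, 10 exceeded background in at least 1 group. Of the secretory markers, 7 of 9 were called lower, with a median of -1.30 and a summed level of 16.9 to 17.0 against 15.6 to 16.4, the lowest in 48 hpi replicate 3. All 4 measured proliferation markers were higher, and among them *Mki67* changed by 3.47. The basal cell keratins *Krt14* (3.18) and *Krt5* (0.69) rose, and of the other 4 basal markers 2 fell and 2 were not called. Of the ionocyte markers, 3 of 4 were called lower, with a summed level of 9.28 to 9.68 in the controls and 7.71 to 8.48 at 48 hpi. Most of that sum came from *Atp6v1c2*, with means of 9.16 and 7.55. In these bulk samples, fewer cells of a type and less RNA per cell cannot be told apart.

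Of the other cell types that the peeled sheet could hold, leukocyte markers had 1 of 5 called lower, with a median change of -0.14 and a summed level of 7.29 to 7.62 against 6.88 to 7.05. For fibroblasts the proteoglycan gene *Dcn* was called lower, at -1.85. It made up most of the summed level of that list (10.1 to 10.7 against 8.05 to 9.34), while the other 4 markers were not called and the median change of the 5 was 0.30. For submucosal gland cells 1 of 3 was called lower, *Ltf*, at -1.32. It made up nearly all of the summed level of that list (13.9 to 14.0 against 11.9 to 13.0). *Dcpp3* differed by 0.10 and was not called, and the median change of the 3 was -0.11. For smooth muscle 1 of 3 was called lower (5.83 to 6.03 against 5.80 to 6.37), a gene within background. No endothelial or cartilage marker was called, at summed levels of 6.03 to 6.28 against 5.94 to 6.10 and 5.84 to 5.96 against 5.79 to 5.81. The part of these shifts in the results that follow was not tested.

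The regulatory sequence just before the start of the genes is shown for *Scnn1b* and *Ano1*, which fell, for *Scnn1g*, the neighbour of *Scnn1b*, and for *Aqp3*, which had the only member probe set called higher. *Scnn1g* and *Scnn1b* lie next to each other on chromosome 7 of GRCm38.p6, both on the plus strand, at chr7:121734420-121768482 and chr7:121865038-121918728, with 96555 bases and 0 annotated genes between them. *Ano1* also lies on chromosome 7, at chr7:144588549-144752026 on the minus strand, and *Aqp3* on chromosome 4, at chr4:41092724-41098183 on the minus strand. The windows come from RefSeq promoters of GRCm38.p6 and are given 5′ to 3′ on the strand of the gene. All but that of *Scnn1g* end at the base before the listed start. Capitals mark the GC box (GGGCGG) and the TATA box (TATAAA), each searched on both strands. The *Scnn1g* window ends at the base before the annotated gene, because the listed start lies 59 bases inside that gene. It is 191 bases long and lacks the 59 bases just before the listed start. The listed start of *Ano1* lies 13453 bases inside its annotated gene, so this window lies within that gene.
Scnn1b, chr7:121864788-121865037, plus strand: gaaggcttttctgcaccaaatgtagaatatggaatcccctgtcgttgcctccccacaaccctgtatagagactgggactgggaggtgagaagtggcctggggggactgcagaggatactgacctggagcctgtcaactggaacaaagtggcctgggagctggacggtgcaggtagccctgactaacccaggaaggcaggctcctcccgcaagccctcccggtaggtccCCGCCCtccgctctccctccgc
Scnn1g, chr7:121734229-121734419, plus strand: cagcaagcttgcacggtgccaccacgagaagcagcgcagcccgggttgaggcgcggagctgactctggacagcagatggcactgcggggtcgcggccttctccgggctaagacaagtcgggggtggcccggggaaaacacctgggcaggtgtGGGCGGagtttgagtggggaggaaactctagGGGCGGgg
Ano1, chr7:144738574-144738823, minus strand: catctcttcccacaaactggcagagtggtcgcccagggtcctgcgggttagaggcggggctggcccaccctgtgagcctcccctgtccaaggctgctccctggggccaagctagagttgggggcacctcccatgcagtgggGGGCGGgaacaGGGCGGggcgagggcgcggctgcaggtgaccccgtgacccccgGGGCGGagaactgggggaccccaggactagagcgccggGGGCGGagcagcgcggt
Aqp3, chr4:41098184-41098433, minus strand: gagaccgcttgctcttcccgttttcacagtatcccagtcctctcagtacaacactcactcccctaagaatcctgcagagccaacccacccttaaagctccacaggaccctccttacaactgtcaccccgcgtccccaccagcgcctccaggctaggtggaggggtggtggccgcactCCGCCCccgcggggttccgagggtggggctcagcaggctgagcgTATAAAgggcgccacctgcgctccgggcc

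These windows were rich in G and C, at 60.8% for *Scnn1b*, 67.0% for *Scnn1g*, 72.0% for *Ano1* and 64.0% for *Aqp3*, against a median of 52.4% over all 32851 windows. Each held at least 1 GC box, found in 32.7% of all windows of 250 bases. *Ano1* held 4, *Scnn1g* held 2, and *Scnn1b* and *Aqp3* held 1 each, on the opposite strand. The windows of *Cftr* and *Aqp5*, which are not printed, held 6 and 2. Of these 4 windows as printed, only that of *Aqp3* held a TATA box, 29 bases before the start, a motif in 12.4% of all windows. For *Scnn1g*, the 59 bases just before the listed start were not searched for this or any other motif. Whether they hold a TATA box is therefore not known here. The CCAAT box (33.8% of all windows), the AP-1 motif TGANTCA (6.75%), the forkhead motif TGTTTAC (3.17%) and the glucocorticoid receptor motif AGAACA (16.1%) were not found in these 4 windows. These matches describe letters only, and no binding was measured.

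All 3 subunits of the epithelial sodium channel had lower means at 48 hpi, and 2 of them passed the test. *Scnn1a*, the alpha subunit that the channel requires, read 9.05, 9.13 and 9.08 in the control replicates and 8.03, 7.96 and 7.62 at 48 hpi. Every injured array lay below every control array by more than the spread within either group. The mean fell from 9.09 ± 0.04 to 7.87 ± 0.22 (SD, n = 3), so the control signal was 2.32-fold that at 48 hpi. The change was -1.22 (SE 0.12, 95% confidence interval -1.49 to -0.94, limma adjusted p = 0.000208). Over the 20 alternatives in the processing, it stayed called, between -1.34 and -0.87, with adjusted p from 4.63e-05 to 0.0139. The change of *Scnn1a* was lower than that of all but 2.39% of genes.

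*Scnn1b*, the beta subunit, gave a weaker signal, 5.99, 6.31 and 5.84 in the controls and 5.27, 5.50 and 5.41 at 48 hpi. The groups did not overlap, and all 6 values were above background. The mean fell from 6.05 ± 0.24 to 5.39 ± 0.12 (SD, n = 3), with the control 1.57-fold the injured level. The change of -0.65 (SE 0.13, 95% confidence interval -0.96 to -0.35) had a limma adjusted p of 0.00626. It was not called with the methods' t-test, nor with equal hybridization controls, where it was -0.31. Over all alternatives the adjusted p ranged from 0.00411 to 0.302.

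*Scnn1g*, the gamma subunit, was the most variable of the members. Its control values were 6.34, 7.25 and 5.32, and its 48 hpi values were 5.38, 5.29 and 4.65. Control replicate 3 lay below 48 hpi replicate 1, so the groups overlapped, and 48 hpi replicate 3 lay below the background level. The mean was 6.30 ± 0.97 in the controls and 5.11 ± 0.40 at 48 hpi (SD, n = 3). The difference of -1.20 (SE 0.43, 95% confidence interval -2.17 to -0.22) was about as large as that of *Scnn1a* but missed the threshold, with a limma adjusted p of 0.0631. Without control replicate 3 it was -1.69 and was called, with a limma adjusted p of 0.00852. Without control replicate 2 it was -0.72 (limma adjusted p = 0.155), and without 48 hpi replicate 3 it was -0.97 (limma adjusted p = 0.168). Equal hybridization controls and the replicate block also called it, and the adjusted p ranged from 0.00174 to 0.239 over the alternatives.

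**Figure D1:**
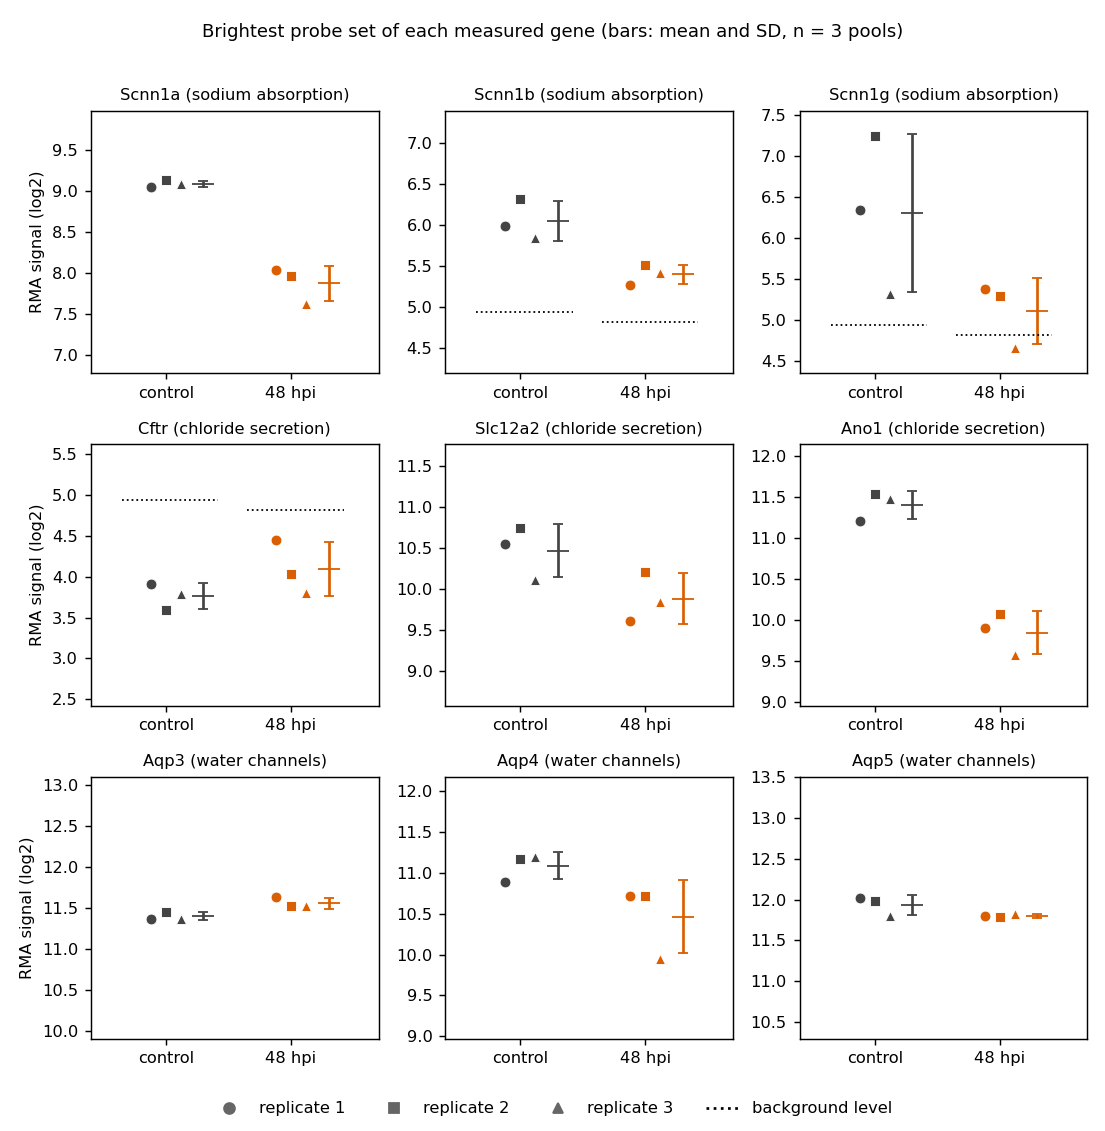
RMA signal (log2, vertical axis) of the brightest probe set of the 9 measured genes in each array, by group on the horizontal axis. Points are pools (circle, square and triangle for replicates 1, 2 and 3), bars are the mean and SD of 3 pools, and dotted lines mark the background level where it falls in the panel. The 48 hpi points of *Scnn1a*, *Scnn1b*, *Ano1* and *Aqp4* all lie below their control points, the control points of *Scnn1g* spread from 5.32 to 7.25, and all points of *Cftr* lie under the background line.

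The subunits were also compared with each other within each array, since equal changes would leave their difference unchanged. With 3 arrays against 3, the exact permutation test cannot go below p = 0.1, and 7 pairs of members of 1 role were compared, 1 of which, *Cftr* with *Ano1*, is not described because *Cftr* was within background. *Scnn1a* minus *Scnn1b* was 0.56 lower on the log2 scale at 48 hpi (-0.56, from 3.04 ± 0.21 to 2.48 ± 0.28, SD, n = 3; exact permutation p = 0.1, adjusted p = 0.175), and its groups did not overlap. *Scnn1a* minus *Scnn1g* differed by -0.02 (exact permutation p = 0.8), and *Scnn1b* minus *Scnn1g* by 0.54 (exact permutation p = 0.4, adjusted p = 0.467). Both pairs with *Scnn1g* overlapped between the groups, and the control SD of these differences was 0.94 and 0.73.

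Among the chloride secretion genes, *Ano1* fell the most of all the members. *Ano1*, the calcium-activated chloride channel also called Tmem16a, read 11.21, 11.54 and 11.47 in the controls on its brightest probe set (1459713_s_at) and 9.90, 10.08 and 9.57 at 48 hpi. All injured arrays lay more than 1 log2 unit below all controls, with 48 hpi replicate 3 the lowest. The mean fell from 11.41 ± 0.17 to 9.85 ± 0.26 (SD, n = 3), a 2.95-fold higher signal in the controls. The change of -1.56 (SE 0.15, 95% confidence interval -1.90 to -1.22) had a limma adjusted p of 0.000177. It was lower than the change of all but 1.24% of genes.

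The other *Ano1* probe set (1426571_at), whose name carries no mark of shared sequence, read 8.40, 8.63 and 8.59 in the controls and 7.45, 7.49 and 7.41 at 48 hpi. It moved the same way with little spread in either group. Its change was -1.09 (SE 0.09, 95% confidence interval -1.31 to -0.87, limma adjusted p = 0.000124), so the control signal was 2.13-fold that at 48 hpi. Both probe sets stayed called under every alternative that could be fitted to them. With equal hybridization controls, the least change for both, they fell by 1.22 and 0.74 on the log2 scale, and the highest adjusted p over all alternatives, that of the methods' t-test, was 0.0154 for the first and 0.00947 for the other.

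*Slc12a2*, the sodium-potassium-chloride cotransporter that loads chloride into the cell, was bright but did not pass the test on any of its 3 probe sets. On the brightest (1417622_at), the controls read 10.54, 10.74 and 10.11 and the injured arrays 9.60, 10.21 and 9.83. Control replicate 3 lay below 48 hpi replicate 2, so the groups overlapped. The means were 10.46 ± 0.32 and 9.88 ± 0.31 (SD, n = 3), and the difference of -0.58 (SE 0.20, 95% confidence interval -1.03 to -0.13) had a limma adjusted p of 0.0510. It was called in 8 of 20 alternatives, and the adjusted p ranged from 0.0170 to 0.424. Without control replicate 3 the difference was -0.76 (limma adjusted p = 0.0230), and without 48 hpi replicate 2 it was -0.75 (limma adjusted p = 0.0255). Without any other single array it lay between -0.56 and -0.44 and was not called (limma adjusted p of 0.108 to 0.165).

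The other probe sets of *Slc12a2* did not move together. The probe set 1417623_at read 8.35, 8.46 and 7.27 in the controls and 8.35, 8.30 and 7.57 at 48 hpi, a difference of 0.05 (SE 0.33, limma adjusted p = 0.935). Replicate 3 was the lowest array of both groups here, by about 1 log2 unit in the controls. The probe set 1448780_at read 7.998, 8.373 and 7.275 in the controls and 7.244, 7.668 and 7.311 at 48 hpi, a difference of -0.47 (SE 0.25, limma adjusted p = 0.199). Without control replicate 3 it was -0.78 and was called (limma adjusted p = 0.0171), and without control replicate 2 it was -0.23 (limma adjusted p = 0.525), while its adjusted p ranged up to 0.669 over the alternatives. Control replicate 3 was thus the lowest control on all 3 *Slc12a2* probe sets. It was also the lowest control on other members, among them *Scnn1g*, *Aqp5* and *Scnn1b*, which was called.

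*Cftr*, the channel mutated in cystic fibrosis, had 2 probe sets, and neither rose above background in either group. The brighter (1420579_s_at) read 3.91, 3.60 and 3.79 in the controls and 4.45, 4.03 and 3.80 at 48 hpi, a difference of 0.33 (SE 0.17, limma adjusted p = 0.169). The other (1427767_a_at) read 2.51, 2.59 and 2.53 against 2.54, 2.30 and 2.43, a difference of -0.12 (limma adjusted p = 0.391). The array did not resolve *Cftr* in this epithelium, and these values bear on neither its presence nor its absence. The brighter probe set was called higher with equal hybridization controls, with array weights and without 48 hpi replicate 3, and its adjusted p ranged from 0.0179 to 0.509.

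Of the markers of ionocytes, 2 exceeded background. *Atp6v1c2*, a subunit of the proton pump, fell by 1.60 on the log2 scale (limma adjusted p = 0.00107), and the transcription factor *Ascl3* fell by 0.92 (limma adjusted p = 0.00442). *Foxi1*, the ionocyte regulator, was called lower at -0.53, but within background in both groups.

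**Figure D2:**
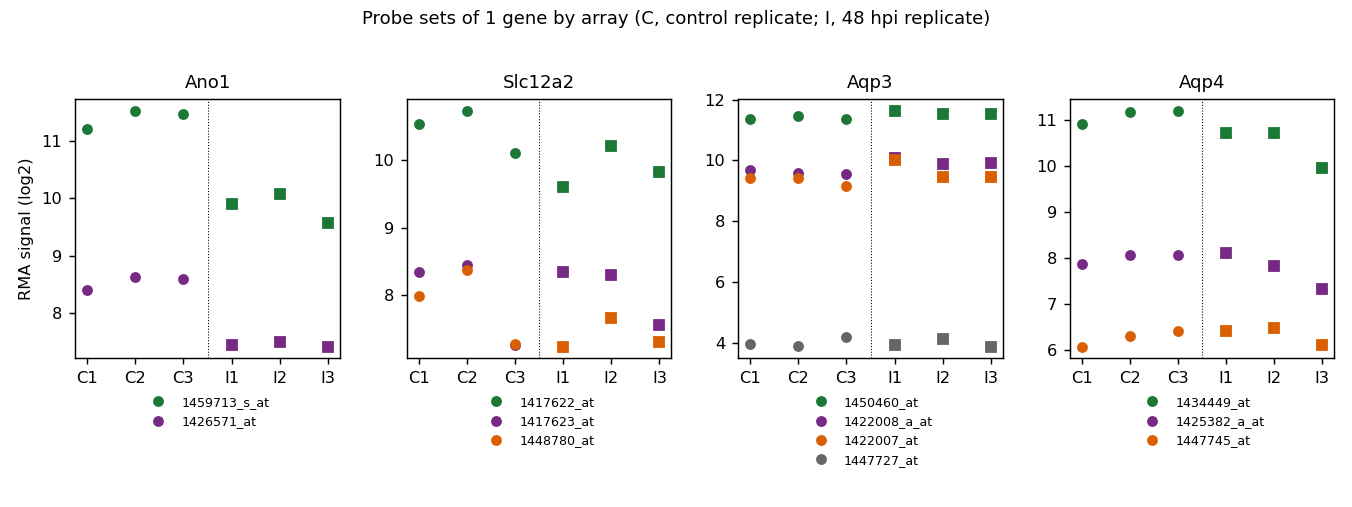
RMA signal (log2, vertical axis) of every probe set of *Ano1*, *Slc12a2*, *Aqp3* and *Aqp4* in the 6 arrays (C1 to C3, control replicates, circles; I1 to I3, 48 hpi replicates, squares), each probe set in a color of its own. Both *Ano1* probe sets drop at 48 hpi, the *Slc12a2* probe sets share a low control replicate 3, of the 4 *Aqp3* probe sets 1422008_a_at was called higher and the others were not called, and only the brightest *Aqp4* probe set separates the groups.

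Of the water channels, *Aqp4* was called on its brightest probe set, and *Aqp3* and *Aqp5* were not. *Aqp3*, which carries glycerol as well as water and is abundant in basal cells, read 11.37, 11.46 and 11.37 in the controls on its brightest probe set (1450460_at) and 11.64, 11.52 and 11.52 at 48 hpi. All injured arrays lay above all controls, although by little. The means were 11.40 ± 0.05 and 11.56 ± 0.07 (SD, n = 3), and the difference of 0.16 (SE 0.09, 95% confidence interval -0.04 to 0.36, limma adjusted p = 0.196) was not called under any alternative.

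Of the 3 dimmer *Aqp3* probe sets, 1 was called. The probe set 1422008_a_at read 9.68, 9.60 and 9.56 in the controls and 10.06, 9.88 and 9.90 at 48 hpi, and rose by 0.34 (SE 0.09, 95% confidence interval 0.12 to 0.55, limma adjusted p = 0.0234), which is 1.26-fold. This was the only member probe set called higher. It was not called in 5 of 18 alternatives, among them without control replicate 2, without control replicate 3 and without 48 hpi replicate 1, where it was between 0.28 and 0.33 (limma adjusted p of 0.0758 to 0.0809), and its adjusted p ranged from 0.0101 to 0.156 in all. The probe set 1422007_at read 9.415, 9.419 and 9.144 against 9.997, 9.462 and 9.462, a difference of 0.31 (SE 0.16, limma adjusted p = 0.178) whose groups did not overlap and which 48 hpi replicate 1 led. Without that array the difference was 0.14. The fourth, 1447727_at, was within background in both groups and differed by -0.04 (limma adjusted p = 0.827).

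*Aqp4*, the water channel best known from brain astrocytes and also present in airway epithelium, read 10.89, 11.17 and 11.20 in the controls on its brightest probe set (1434449_at) and 10.72, 10.72 and 9.95 at 48 hpi. The groups did not overlap, and 48 hpi replicate 3 lay well below the other arrays. The mean fell from 11.09 ± 0.17 to 10.46 ± 0.44 (SD, n = 3), and the change of -0.62 (SE 0.21, 95% confidence interval -1.10 to -0.15) had a limma adjusted p of 0.0485. The call was lost in 10 of 20 alternatives, and the adjusted p ranged from 0.0288 to 0.349. Without 48 hpi replicate 3 the change was -0.37 (limma adjusted p = 0.0517). Leaving out any 1 control also ended the call, at changes of -0.72, -0.58 and -0.57 without control replicates 1, 2 and 3.

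The 2 dimmer *Aqp4* probe sets did not separate the groups. The probe set 1425382_a_at read 7.87, 8.06 and 8.06 in the controls and 8.12, 7.82 and 7.32 at 48 hpi, a difference of -0.25 (limma adjusted p = 0.364). The probe set 1447745_at read 6.08, 6.32 and 6.41 against 6.42, 6.49 and 6.13, a difference of 0.08 (limma adjusted p = 0.708). On both, 48 hpi replicate 3 was the lowest injured array. That pool was also the lowest of the injured arrays in the summed secretory and ciliated markers, whose part in the *Aqp4* values was not tested.

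*Aqp5*, an apical water channel known from gland acini, read 12.02, 11.98 and 11.79 in the controls and 11.80, 11.78 and 11.82 at 48 hpi. Control replicate 3 lay among the injured arrays. The means were 11.93 ± 0.12 and 11.80 ± 0.02 (SD, n = 3). The difference of -0.13 (SE 0.09, 95% confidence interval -0.35 to 0.08, limma adjusted p = 0.334) was not called, and its sign turned with equal hybridization controls, to 0.21. Of the 9 secretory markers, with a median change of -1.30, *Pigr*, the polymeric immunoglobulin receptor, fell the most in the same arrays, by 2.46 (limma adjusted p = 0.00225). *Scgb1a1*, the main club cell secretoglobin, differed by -0.51 (limma adjusted p = 0.0508). Its control mean of 14.49 lay near the highest value of any probe set, 14.56, which limits what its difference shows.

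Within each array the aquaporins were set against each other. *Aqp3* minus *Aqp4* was 0.79 higher at 48 hpi and *Aqp3* minus *Aqp5* 0.29 higher, both without overlap between the groups (exact permutation p = 0.1 each, the smallest possible, adjusted p = 0.175). *Aqp4* minus *Aqp5* differed by -0.49 and overlapped (exact permutation p = 0.3, adjusted p = 0.42).

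**Figure D3:**
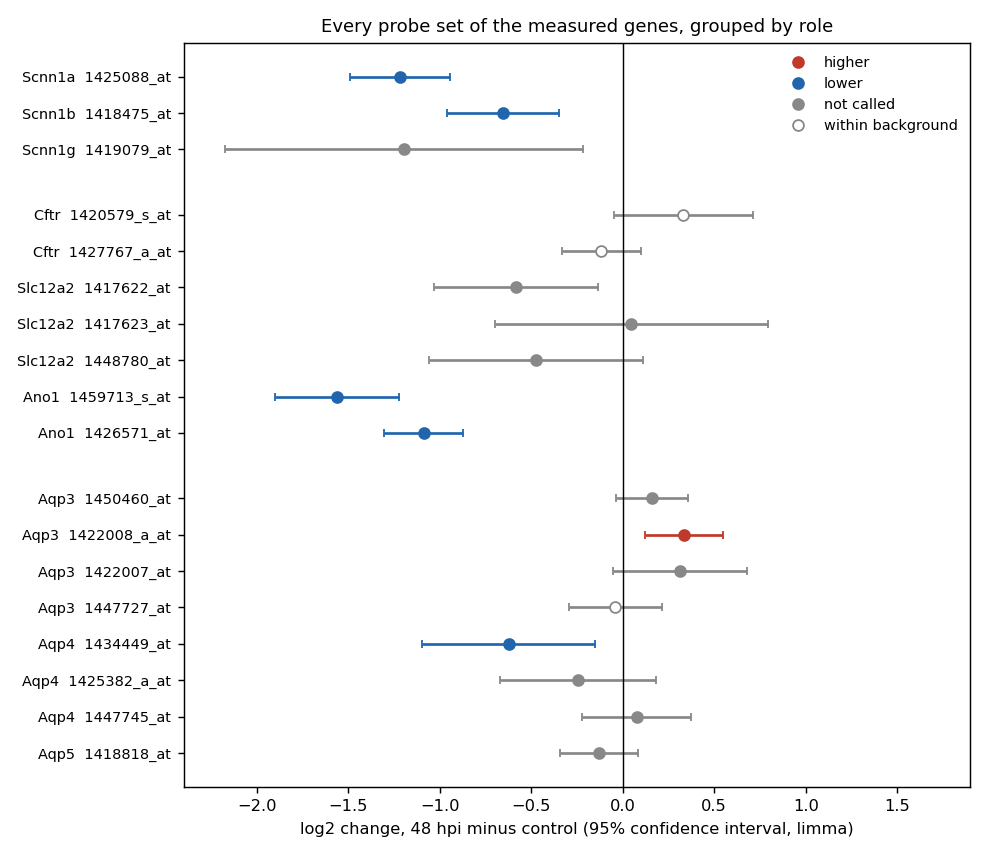
Log2 change at 48 hpi (horizontal axis, 48 hpi minus control) of all 18 member probe sets, grouped by role, with 95% confidence intervals from limma. Blue points were called lower, red higher and grey not called, and open points lie within background. Both *Ano1* probe sets and *Scnn1a* sit below -1 and *Scnn1b* at -0.65, the interval of *Scnn1g* runs from -2.17 to -0.22, and *Aqp3* and *Aqp4* have called probe sets beside ones not called.

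Of the 5 genes with more than 1 probe set, *Ano1* had the same call on both, *Aqp3* and *Aqp4* each had a called probe set beside others that were not called, and *Slc12a2* and *Cftr* had none called. Over all 9010 genes with more than 1 probe set, 44% had calls that were not alike.

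The genes around the channels were read from 6 lists, 85 genes in all, of which 73 were measured and 57 exceeded background in at least 1 group. On their brightest probe sets 9 were called higher and 17 lower, beside the 18.9% and 17% of all genes given above. Of the called genes, 12 had more than 1 probe set and 0 had a probe set called the other way, but 11 had a further probe set that was not called. Of the genes not called, 3 had a dimmer probe set that was.

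Regulators of sodium absorption moved in both directions, with 4 of 17 called higher, 5 lower and a median of -0.14. Serine proteases of the membrane, some of which cleave the sodium channel, moved both ways. *Tmprss4* read 7.84, 7.93 and 7.68 in the controls and 9.40, 9.29 and 9.21 at 48 hpi, and rose by 1.48 (SE 0.10, limma adjusted p = 3.91e-05). *St14* (matriptase) rose by 0.59 (limma adjusted p = 0.00263). *Prss8* (prostasin) read 8.48, 8.59 and 8.35 against 7.73, 7.74 and 7.30, and fell by 0.88 (SE 0.14, limma adjusted p = 0.00169). *Tmprss2* fell by 0.89 (limma adjusted p = 0.00517), although 2 of its 4 probe sets were not called.

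*Nr3c2*, the mineralocorticoid receptor through which aldosterone raises sodium absorption, read 8.09, 7.91 and 7.84 in the controls and 7.01, 7.08 and 6.59 at 48 hpi, a fall of 1.05 (SE 0.14, limma adjusted p = 0.000901). The kinase *Stk39*, which phosphorylates cation-chloride cotransporters such as Slc12a2, rose by 0.54 (limma adjusted p = 0.00400). The other 3 called genes of this list were named after their values were seen. They were *Sgk1*, an aldosterone-induced kinase (-0.68, limma adjusted p = 0.00988), *Nedd4l*, the ubiquitin ligase that removes the channel from the membrane (-0.40, 0.0158), and *Oxsr1*, a kinase related to Stk39 (0.43, 0.0163). The call of *Nedd4l* was lost without control replicate 3 or 48 hpi replicate 2, and that of *Oxsr1* without control replicate 2. With the mean over the probe sets of each gene, *Nedd4l* differed by -0.94 and *Tmprss2* by -0.48, both called.

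Of the sodium pump and the potassium channels, 1 of 10 was called higher and 4 lower, with a median of -0.13. *Kcne3*, the subunit that holds the basolateral potassium channel Kcnq1 open in secreting epithelia, read 8.77, 8.92 and 8.67 in the controls and 7.59, 7.61 and 7.40 at 48 hpi. Its fall of 1.26 (SE 0.11, limma adjusted p = 0.000101) was much larger than the spread in either group. *Kcnq1* itself fell by 0.47 (limma adjusted p = 0.0253), but the call was lost in 8 of 20 alternatives, among them without control replicate 1 or 2 or 48 hpi replicate 1 or 3, with adjusted p from 0.0116 to 0.681. The pump subunit *Atp1b1* fell by 0.82 (limma adjusted p = 0.00202), with 4 of its 5 probe sets called lower, while *Atp1b3* rose by 0.36 (limma adjusted p = 0.0137). *Fxyd3*, a small regulator of the pump, fell by 0.41 (limma adjusted p = 0.0151). The call of *Fxyd3* was lost without control replicate 2 or 3, and that of *Atp1b3* without control replicate 2.

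Of the other chloride, bicarbonate and acid transporters, 2 of 21 were called higher and 3 lower, with a median of -0.01. *Slc4a4*, the basolateral sodium bicarbonate cotransporter, read 8.25, 8.01 and 8.11 in the controls and 6.79, 6.91 and 6.77 at 48 hpi, and fell by 1.30 (SE 0.10, limma adjusted p = 6.31e-05). *Slc12a7*, a potassium-chloride cotransporter, fell by 1.14 (limma adjusted p = 0.000427), and the calcium-activated anion channel *Best1* by 0.68 (limma adjusted p = 0.00911). *Car12*, a carbonic anhydrase on the cell surface, rose by 0.87 (limma adjusted p = 0.000693), with its 2 dimmer probe sets not called and a mean over its probe sets of 0.24 that was not called (limma adjusted p = 0.0903). *Lrrc8a*, the required subunit of the volume-regulated anion channel, rose by 0.30 (limma adjusted p = 0.0372), a call lost in 9 of 20 alternatives, among them the replicate block and every omission of a single array but 48 hpi replicate 2, with adjusted p from 0.0131 to 0.142.

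The other anoctamins, relatives of Ano1 that include lipid scramblases, gave 1 call. Of 6 measured, 1 was called higher and 0 lower by limma, and 1 was lower at an unadjusted p below 0.05. *Ano9* read 4.79, 4.81 and 4.81 in the controls, within background, and 5.83, 5.73 and 5.78 at 48 hpi, where it exceeded it. It rose by 0.98 (SE 0.08, limma adjusted p = 0.000107). The replicate block called 1 anoctamin lower, and the methods' t-test called 0 lower.

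Among 9 other aquaporins, limma called 1 lower and 0 higher, the methods' t-test called 0 in either direction, 1 was higher at an unadjusted p below 0.05, and 5 did not exceed background in either group. *Aqp11*, an aquaporin of intracellular membranes, read 5.45, 5.41 and 5.54 in the controls and 5.26, 4.79 and 4.92 at 48 hpi. Its fall of 0.47 (limma adjusted p = 0.0214) was the only limma call, and it was lost in 7 of 20 alternatives, among them without control replicate 1 or 3 or 48 hpi replicate 2 or 3, with adjusted p from 0.00494 to 0.668.

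Receptors and partners that control secretion gave 1 gene called higher and 4 lower of 10 measured, with a median of -0.13. *P2ry2*, the nucleotide receptor that raises calcium and opens calcium-activated chloride channels, was within background in the controls, at 4.71, 4.77 and 4.69, and read 5.52, 5.29 and 5.34 at 48 hpi. It rose by 0.66 (SE 0.09, limma adjusted p = 0.00117). *Vipr1*, a receptor for vasoactive intestinal peptide that raises cyclic AMP, fell by 1.13 (limma adjusted p = 0.000175). The phosphodiesterase *Pde4d*, which breaks cyclic AMP down, fell by 1.40 (SE 0.22, limma adjusted p = 0.00187), from 6.99 ± 0.13 to 5.59 ± 0.50 (SD, n = 3), with 48 hpi replicate 3 the lowest. *Slc9a3r2*, a scaffold protein of the apical membrane, fell by 1.03 (limma adjusted p = 0.00153). With the mean over the probe sets of each gene these 3 falls were smaller, at -0.54 for *Vipr1*, -0.76 for *Pde4d* and -0.62 for *Slc9a3r2*, and were still called. *Nt5e*, the enzyme that makes adenosine from AMP at the cell surface, was called lower by 0.30 with a limma adjusted p of 0.0496. It was not called in 13 of 20 alternatives, among them those without control replicate 1, 2 or 3 or 48 hpi replicate 1 or 2 (-0.34 to -0.25), with adjusted p from 0.0116 to 0.893. Its 2 dimmer probe sets, both above background, were not called and differed by -0.16 and 0.17. The mean over its probe sets was -0.095 and was not called (limma adjusted p = 0.442).

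**Figure D4:**
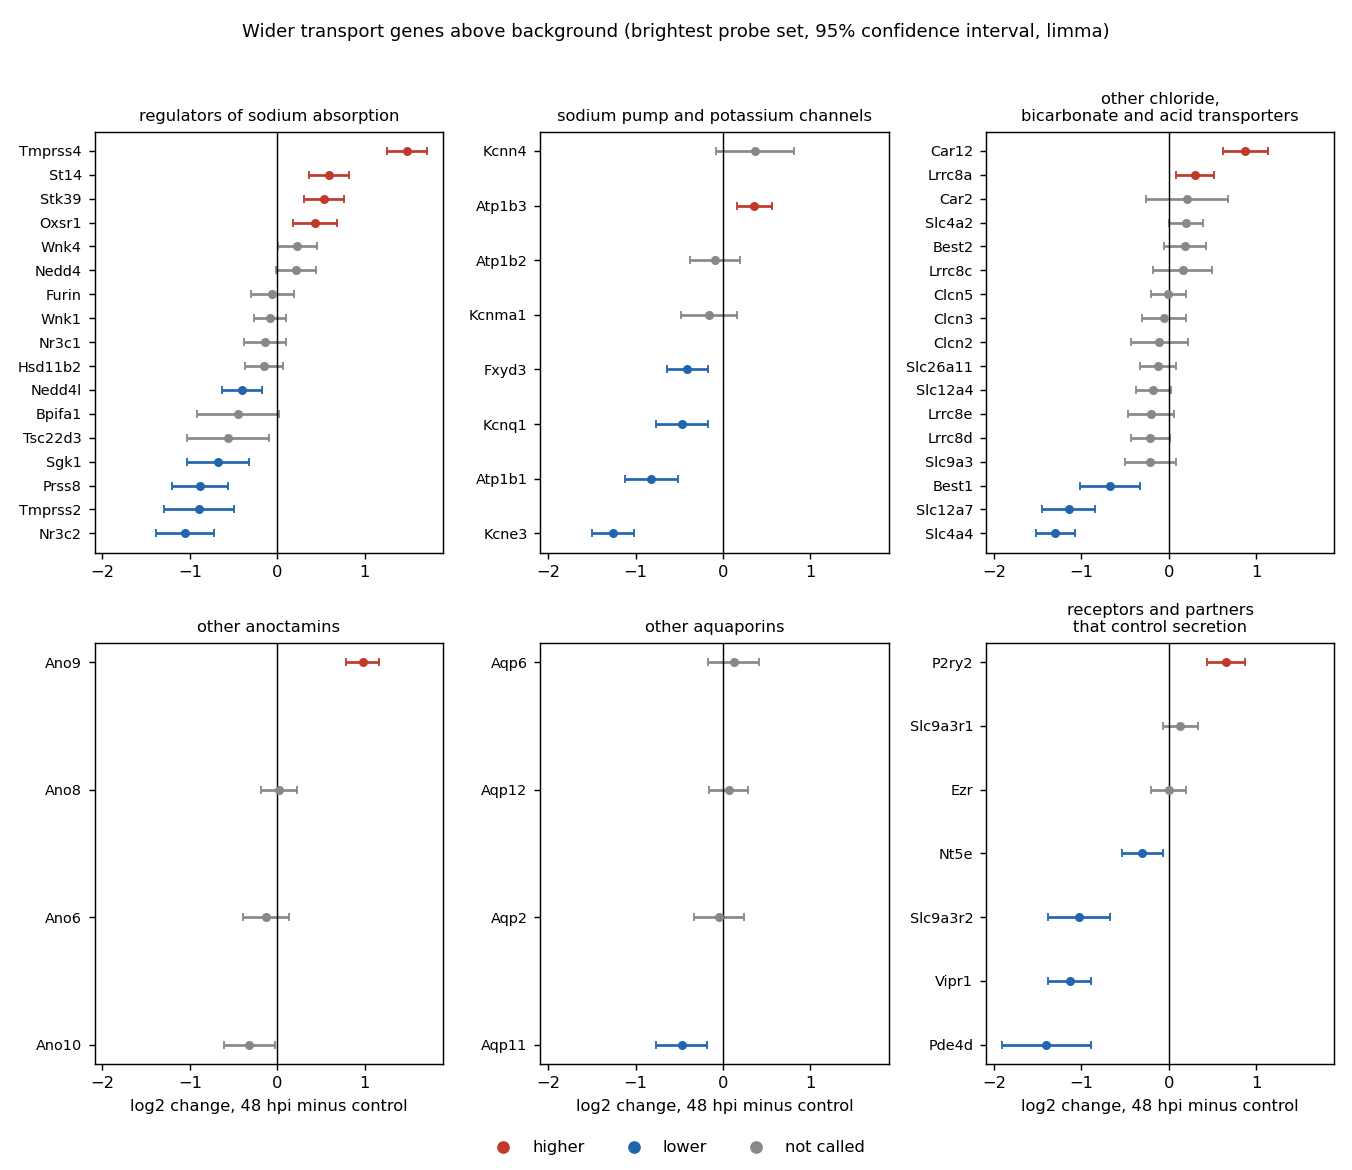
Log2 change at 48 hpi (horizontal axis, 48 hpi minus control) of the genes of the 6 wider lists that exceeded background in at least 1 group, brightest probe set, with 95% confidence intervals from limma. Blue points were called lower, red higher and grey not called. Each list holds genes on both sides of 0, from *Tmprss4* at 1.48 to *Pde4d* at -1.40.

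The member results differed in how far they depended on the processing. Of the genes read from the brightest probe set, *Scnn1a* kept its call in all 20 alternatives and *Ano1* in all 19 that could be fitted to it. *Scnn1b* lost its call in 2 and *Aqp4* in 10. The sign of every gene held throughout, except that of *Aqp5*, which turned with equal hybridization controls.

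**Figure D5:**
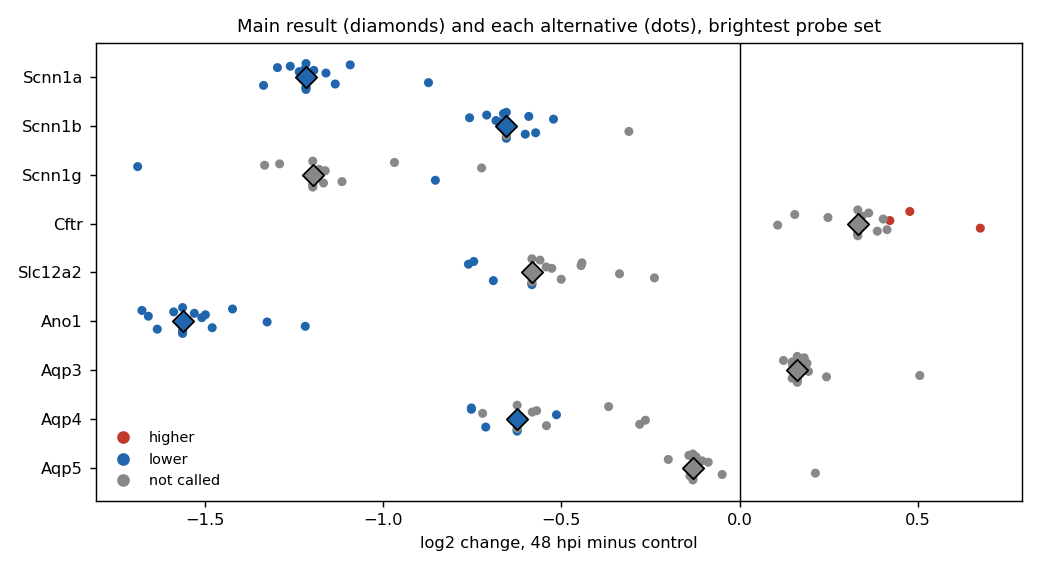
Log2 change at 48 hpi (horizontal axis, 48 hpi minus control) of the 9 measured genes on the brightest probe set, as reported (diamonds) and under each alternative in the processing (dots, jittered vertically), colored by the call. The dots of *Scnn1a* and *Ano1* are all blue, from -1.34 to -0.87 and from -1.68 to -1.22, those of *Aqp4* are blue and grey, and those of *Aqp5* lie on both sides of 0.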

How the data were processed

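RNA of tracheal epithelium from 3 control and 3 48 hpi pools, each of 4 tracheas, was amplified with MessageAmp Premier and hybridized to Affymetrix mouse arrays. The authors normalized the arrays by RMA in Partek 6.5 and deposited log2 values for 45101 probe sets, and the submitters' processing notes also name Affymetrix Expression Console 1.1. The values ranged from 2.01 to 14.6. RMA draws the arrays towards 1 distribution, although the deposited medians differed slightly between the groups. A change common to most genes would be largely hidden in them, and log2 differences of dim probe sets are compressed. The number of arrays limits the precision. Samples were grouped by the titles in their labels, and mesenchymal arrays were not used here, so no model over both tissues was fitted. The members and lists were chosen with earlier results of these data known.

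From the deposited values, 64 control probe sets and 932 probe sets with several symbols were left out, and 34945 probe sets with 1 symbol were tested, of which 34741 matched RefSeq genes by Entrez ID. A model of both groups was fitted with limma 3.58.1 (lmFit and eBayes) in R 4.3.3, two-sided, with Benjamini-Hochberg adjustment over all these probe sets and a threshold of 0.05. A gene was read from its probe set with the highest mean of the 6 arrays. Every member probe set was named. Of each wider list, every called gene was named where 9 or fewer were measured, and otherwise at most the 6 called genes with the smallest p. Markers were named from those above background, and *Foxi1* after its values were seen. Pairs of members were compared with two-sided exact permutation tests (scipy 1.17.1). In all, 20 alternatives to the fit were run, and the script was tested on simulated data.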

Additional observations from a re-analysis of the deposited data

How the results depend on the processing

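The calls of *Scnn1a* and of both *Ano1* probe sets held under every alternative that could be fitted, and those of *Scnn1b*, *Aqp4* and *Aqp3* did not, as given with their values above. The cause was not tested. *Cftr* lay within background, which limits what its values show. With the methods' t-test, 3 member probe sets, 2 member genes, 2929 of all probe sets, 11 genes of the wider lists, 3 regulators of sodium absorption and 0 other aquaporins were called lower. After repeated quantile normalization, 0 member probe sets, 0 pump or potassium channel genes, 1 other chloride transporter and 1 other aquaporin were called higher. Of all 34945 probe sets, 5917 were called higher in that setting. With a common median 1 other aquaporin was called higher, beside 7600 of all probe sets. With equal hybridization controls 7995 of all 34945 probe sets, 3 member probe sets, 1 member gene, 2 pump or potassium channel genes and 1 other aquaporin were called higher. In that setting 1278 of all probe sets, 7 wider genes, 1 regulator of sodium absorption, 1 pump or potassium channel gene and 0 other aquaporins were called lower. With only 1 probe set per gene tested, which leaves fewer tests, 3527 were called higher and 3191 lower, 0 member probe sets and 1 other aquaporin higher. With the mean of a gene's probe sets 3314 genes were called higher and 2960 lower. With array weights 2 member probe sets, 1 member gene and 1 other aquaporin were called higher, beside 6621 of all probe sets. At an adjusted p below 0.01, 4319 of all probe sets, 0 member probe sets, 0 pump or potassium channel genes and 1 other chloride transporter were called higher. At that threshold 2821 of all probe sets, 2 pump or potassium channel genes and 0 other aquaporins were called lower.

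Some signs turned. With equal hybridization controls the dimmer *Cftr* probe set differed by 0.23, *Aqp5* by 0.21, *Aqp4* 1425382_a_at by 0.10 and *Nt5e* by 0.043. The difference of *Slc12a2* 1417623_at was -0.051 after repeated quantile normalization. Without 1 array at a time it ranged from -0.33 to 0.30, and was below 0 without control replicate 3, 48 hpi replicate 1 or 48 hpi replicate 2. That of *Aqp3* 1447727_at was 0.021 after repeated quantile normalization, 0.042 with a common median, 0.30 with equal hybridization controls and 0.0079 with array weights, and ranged from -0.11 to 0.043 without 1 array at a time. That of *Aqp4* 1447745_at ranged, without 1 array at a time, from -0.017 (without control replicate 1) to 0.19.

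Leaving out 1 array at a time gave 0 to 2 member probe sets and 0 to 1 member genes called higher, the latter being *Cftr* without 48 hpi replicate 3. It gave 0 to 2 pump or potassium channel genes, 1 to 2 other chloride transporters and 0 to 1 other aquaporins called higher, and 2 to 4 pump or potassium channel genes, 0 to 1 other anoctamins and 0 to 1 other aquaporins called lower. Of all 34945 probe sets, 5095 to 5582 were called higher and 3729 to 4821 lower in these fits. *Scnn1a* minus *Scnn1g* ranged from -0.47 to 0.47, and was 0.47 without control replicate 3, 0.04 without 48 hpi replicate 1 and 0.03 without 48 hpi replicate 2.

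The replicate numbers were also fitted as a block. Deviations of same-numbered arrays correlated at 0.127, 0.108 and 0.097 across probe sets, and those of other-numbered arrays at -0.121 to -0.006. Every array thus correlated best with its own number. Whether the samples were paired by number was not tested, and the main fit did not pair them. The replicate block called 6097 of all probe sets higher and 5499 lower, called *Scnn1g* (limma adjusted p = 0.00656) and *Slc12a2* 1417622_at (limma adjusted p = 0.0170) lower, and gave 1 other chloride transporter called higher and 1 other anoctamin called lower.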
